A study of Rattus norvegicus with 9 samples.

Results

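The genes described here are 10 feedback and target genes of the transcription factor NF-kB, chosen by symbol from the 34092 genes of the deposited table. They are the receptor gene Tlr2, the subunit genes Nfkb2 and Relb, the feedback inhibitor genes Nfkbia, Nfkbiz and Tnfaip3, and the effector genes Icam1, Vcam1, Ptgs2 and Sod2. Each symbol matched 1 row of the table, none of the 10 overlapped another annotated gene, and all 10 passed the filter on low values that left 15958 genes for testing. The study asked how procalcitonin (PCT) and aminoprocalcitonin (NPCT), the amino-terminal peptide cleaved from PCT, changed the transcriptome of hippocampal neurons. Primary cultures from the hippocampi of embryonic day 17 rat fetuses, with no genetic modification named, were kept for 7 days in vitro and then incubated for 24 h with vehicle (Control), with 1 nM human PCT or with 1 nM human NPCT. Each group had 3 RNA libraries. The labels number them as replicates, whereas by the study's methods the RNA came from pooled biological triplicates, so p-values measure the spread between these libraries, which may be technical.

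NF-kB is a family of dimeric transcription factors that IkB proteins hold in the cytoplasm. Receptors for cytokines and microbial products activate the IKK kinases, which mark IkB for degradation, and the released dimers switch on inflammatory genes together with their own inhibitors. In the brain the pathway is best known from microglia and astrocytes, and neurons use it as well.

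Libraries held between 13573056 and 17211642 fragments, recovered from the FPKM values (fragments of a gene scaled to its length and to the size of the library). PCT replicate 3 and NPCT replicate 3 stood apart from the other libraries of their groups. The chi-square of fragments over genes, per degree of freedom, was 21.6 and 18.9 between PCT replicate 3 and the other PCT libraries against 6.38 between those, and 10.6 and 10.8 between NPCT replicate 3 and the other NPCT libraries against 4.38 between those. Mitochondrial genes took 5.18% to 5.84% of fragments in Control, 4.11% to 6.21% in PCT and 3.70% to 4.17% in NPCT libraries. The 13 neuronal marker genes summed to 2260 to 2350 FPKM in Control, 2210 to 2440 FPKM in PCT and 2130 to 2200 FPKM in NPCT libraries. Their median log2 fold change was -0.08 with PCT and -0.24 with NPCT, and 0 of them were called with either peptide. Glial transcripts were present too, and the cells were grown with no mitotic inhibitor. The sum of 10 astrocyte markers was 2490 to 2670 FPKM in Control and 2150 to 2220 FPKM in PCT libraries, with 5 of 10 called lower, and the sum of 17 microglial markers was 96.2 to 113 FPKM and 57.8 to 62.1 FPKM, with 7 of 17 called lower. In NPCT replicate 3 the microglial sum was 314 FPKM, against 101 and 106 FPKM in the other NPCT libraries. The sum of 10 oligodendrocyte lineage markers was 475 to 491 FPKM in Control, 431 to 449 FPKM in PCT and 517 to 553 FPKM in NPCT libraries. With PCT 7 of the 10 were higher and 1 was lower in all 3 libraries than in all Control libraries, with 0 called. Of all genes tested, 13.1% were higher and 11.9% lower in this way, and 0.589% were called higher and 1.72% lower. The lower marker was Olig1, the most abundant of the 10, at a mean of 271.5 FPKM in Control and 190.7 FPKM with PCT. Endothelial markers summed to at most 2.49 FPKM in any library, with Cldn5 at 0 in all 9. In RNA from whole cultures, fewer cells of a type and less RNA per cell cannot be told apart. The part of these shifts in the results that follow was not tested.

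The promoters of 9 of the 10 genes had an entry in the RefSeq table of build GRCr8, a window from 250 bases before to 50 bases after the annotated gene start. NF-kB dimers bind a 10-base kappa-B consensus of GGG, a purine, any pair of bases, a pair of pyrimidines and CC. Read on both strands, it was found in the windows of 6 of the 9 genes, namely Nfkbia, Nfkbiz, Tnfaip3, Nfkb2, Vcam1 and Tlr2, against 8.16% of the 27457 genes with a window and 7.51% of all 33469 windows. A 9-base form, GGAAATTCC, was added after the sequences had been read. It was found in 0.332% of all windows and in those of Nfkbia, Nfkbiz and Icam1, and in Nfkbia and Nfkbiz it overlapped the consensus match. The windows of Icam1, Ptgs2 and Sod2 held no consensus match, which says only that these letters are not in this stretch. The 250 bases before the gene start are shown, 5′ to 3′ on the gene's strand, for the 3 genes that were called with PCT, for Nfkbiz, which followed Nfkbia most closely, and for Tlr2, whose level lay on the other side of Control. Capitals mark the matches.
Nfkbia, chr6:78597073-78597322, minus strand: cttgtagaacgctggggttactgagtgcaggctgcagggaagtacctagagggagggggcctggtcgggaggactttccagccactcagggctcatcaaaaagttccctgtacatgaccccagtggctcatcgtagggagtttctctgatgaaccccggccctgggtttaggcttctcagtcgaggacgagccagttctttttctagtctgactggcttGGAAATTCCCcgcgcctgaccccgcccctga
Nfkbiz, chr11:58251471-58251720, plus strand: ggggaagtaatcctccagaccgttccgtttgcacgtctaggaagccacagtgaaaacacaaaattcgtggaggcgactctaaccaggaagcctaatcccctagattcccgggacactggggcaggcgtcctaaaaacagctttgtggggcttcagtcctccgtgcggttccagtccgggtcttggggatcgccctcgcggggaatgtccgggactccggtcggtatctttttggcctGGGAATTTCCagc
Nfkb2, chr1:255108124-255108373, plus strand: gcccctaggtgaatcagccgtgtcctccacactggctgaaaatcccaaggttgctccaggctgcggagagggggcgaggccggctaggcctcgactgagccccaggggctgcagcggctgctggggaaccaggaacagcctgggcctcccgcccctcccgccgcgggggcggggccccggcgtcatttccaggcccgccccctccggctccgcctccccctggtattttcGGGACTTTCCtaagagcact
Icam1, chr8:27829595-27829844, plus strand: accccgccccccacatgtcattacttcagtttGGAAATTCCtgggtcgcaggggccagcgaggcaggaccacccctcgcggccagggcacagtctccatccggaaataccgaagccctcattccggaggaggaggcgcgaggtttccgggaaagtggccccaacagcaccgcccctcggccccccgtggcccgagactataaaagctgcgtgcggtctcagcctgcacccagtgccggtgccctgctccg
Tlr2, chr2:171504558-171504807, minus strand: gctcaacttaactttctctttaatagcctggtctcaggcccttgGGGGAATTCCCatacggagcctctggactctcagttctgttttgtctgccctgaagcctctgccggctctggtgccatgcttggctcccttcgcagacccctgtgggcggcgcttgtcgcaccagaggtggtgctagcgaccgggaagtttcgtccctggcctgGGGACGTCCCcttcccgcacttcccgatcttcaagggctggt
In Nfkbia the match began 31 bases before the gene start, in Nfkbiz 13 and in Nfkb2 20. The match in Nfkb2 read GGGACTTTCC. The Icam1 match, GGAAATTCC, began 218 bases before the start. Tlr2 had 3 places with a match, at 206, 205 and 42 bases before its start, of which the first 2 overlap each other and the last 2 read the same on both strands. A match is a description of the sequence, and binding was not measured here.

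With PCT, Nfkb2, Nfkbia and Icam1 rose 1.91-fold, 1.64-fold and 1.61-fold over Control, and no gene of the 10 was called lower. Calls needed an adjusted p (limma with Benjamini-Hochberg adjustment) no higher than 0.05 together with a fold change over 1.5, and fold changes are on the scale of log2 of FPKM plus 0.1, which understates the change of genes with low values. The 3 called genes of 10 stand beside 2.31% called over all 15958 genes, or 0.589% called higher and 1.72% called lower. At an unadjusted p under 0.05 the count was 5 higher and 1 lower, where 18.9% of all genes passed. The 3 PCT libraries lay above the 3 Control libraries in 6 of the 10 genes (Nfkb2, Nfkbia, Nfkbiz, Tnfaip3, Icam1 and Sod2), against 13.1% of all genes, and below them in 1 gene, Tlr2, against 11.9%. The median log2 fold change of the 10 genes was 0.46, that of all genes tested 0.0046. For 1 gene taken alone, exact permutation of 3 and 3 libraries has a smallest two-sided p of 0.1, and the calls depend on limma borrowing information on the spread from other genes.

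**Figure D1:**
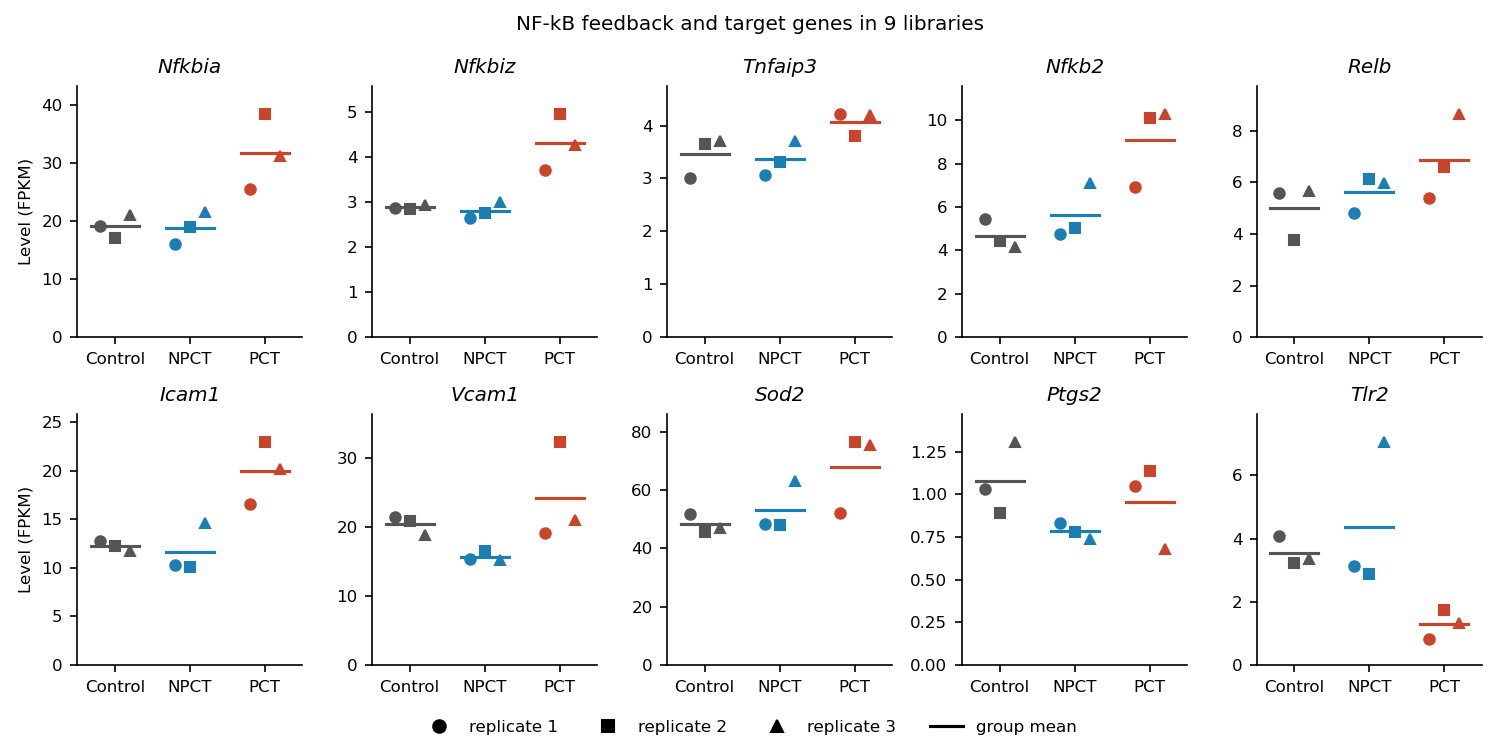
Level of each of the 10 genes in FPKM (vertical axes, from 0) in the 3 Control, 3 NPCT and 3 PCT libraries; each point is 1 library, its shape the replicate number, and each bar the group mean. Nfkbia was between 25.5 and 38.4 FPKM in the PCT libraries and at most 21.5 FPKM in the others, and Tlr2 was at most 1.74 FPKM with PCT and at least 2.87 FPKM elsewhere.

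The 3 calls were close to the threshold. Leaving out any 1 Control library, PCT replicate 2, PCT replicate 3, NPCT replicate 1 or NPCT replicate 2 gave 0 called genes of the 10, leaving out NPCT replicate 3 gave 4, with Tlr2 added as lower, and leaving out PCT replicate 1 gave 5, with Nfkbiz and Sod2 added. Over all 21 other ways of processing, the log2 fold change stayed between 0.82 and 1.12 for Nfkb2, between 0.57 and 0.86 for Nfkbia and between 0.58 and 0.81 for Icam1, and each of the 3 was called in 10 of the 21. The adjusted p from limma ran from 0.0172 to 0.125 for Nfkb2, from 0.0200 to 0.141 for Nfkbia and from 0.0169 to 0.141 for Icam1. Without both libraries that stood apart, an alternative added after seeing the data, 3 genes were called with PCT, namely Nfkb2, Icam1 and, as lower, Tlr2.

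**Figure D2:**
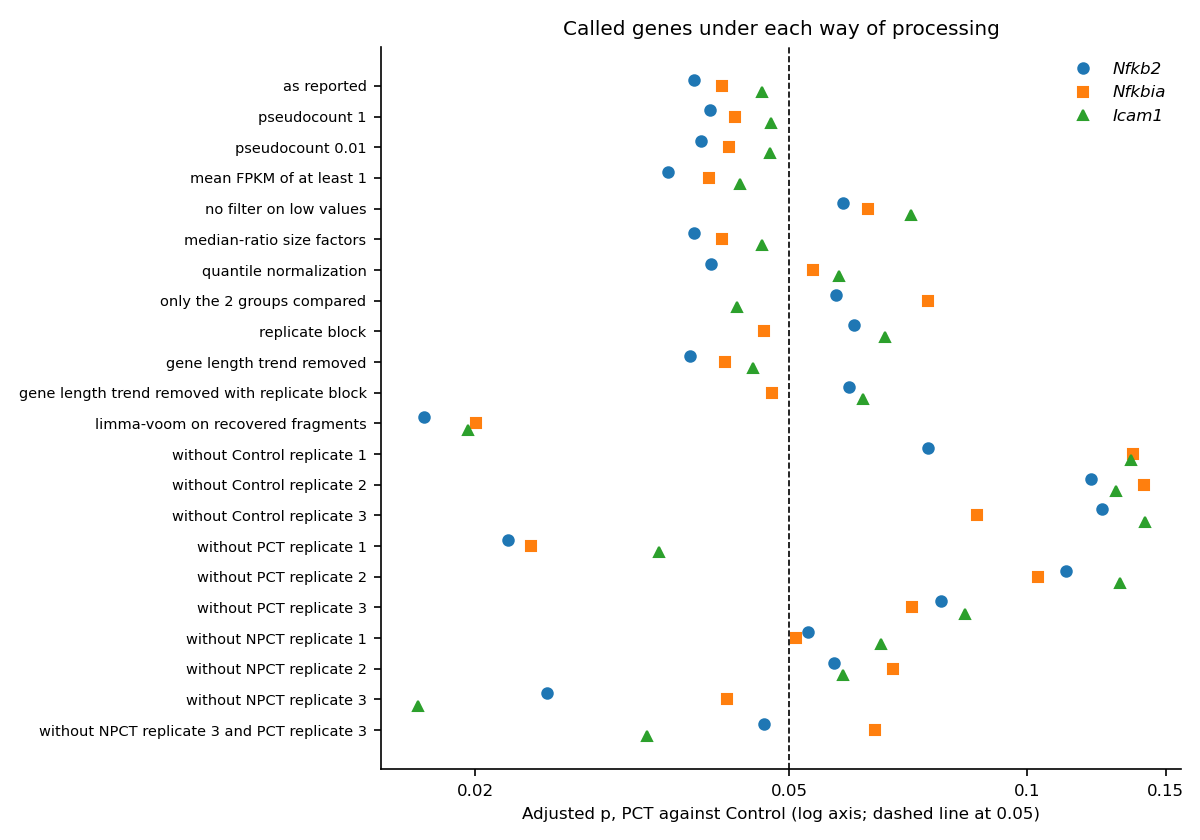
Adjusted p from limma (horizontal log axis, dashed line at 0.05) of Nfkb2, Nfkbia and Icam1 in PCT against Control, as reported and under each alternative way of processing (vertical axis). Each gene passed in 10 of the 21 alternatives, and the 3 genes were at 0.0750 or above without any 1 Control library.

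Tlr2 encodes Toll-like receptor 2, a receptor for bacterial lipoproteins that signals through Myd88 to NF-kB and is itself a target gene (ENSRNOG00000009822, chromosome 2 from 182840727 to 182846061, minus strand, in Rnor_6.0, the build in the submitters' processing notes and of all gene positions here). It was at 4.07, 3.23 and 3.36 FPKM in the Control libraries, at 0.806, 1.74 and 1.34 FPKM in the PCT libraries, and at 3.12, 2.87 and 7.07 FPKM in the NPCT libraries. All PCT libraries lay below all Control libraries, on 31 to 64 fragments against 125 to 162. The log2 fold change of PCT over Control was -1.44 (95% confidence interval -2.26 to -0.63, standard error 0.36), which missed the threshold at an adjusted p of 0.0618 in limma with Benjamini-Hochberg adjustment. Without NPCT replicate 3, whose Tlr2 level was the highest of the 9, the standard error was 0.26 and the same fold change passed at an adjusted p of 0.0219 in limma. Of all genes tested, 2.12% had a log2 fold change at least as low.

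The microglial markers moved with Tlr2. Set against their sum, Tlr2 was at 36.1, 33.6 and 29.9 FPKM per 1000 FPKM of microglial markers in Control, at 13.9, 28.0 and 22.2 in PCT and at 29.4, 28.5 and 22.5 in NPCT libraries. Relative to these markers Tlr2 was thus lower in each PCT library than in each Control library, and also lower in each NPCT library, with an exact two-sided permutation p of 0.1 in both comparisons, the smallest that 3 against 3 can give. NPCT replicate 3, which had the highest Tlr2 level, had the highest microglial sum.

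**Figure D3:**
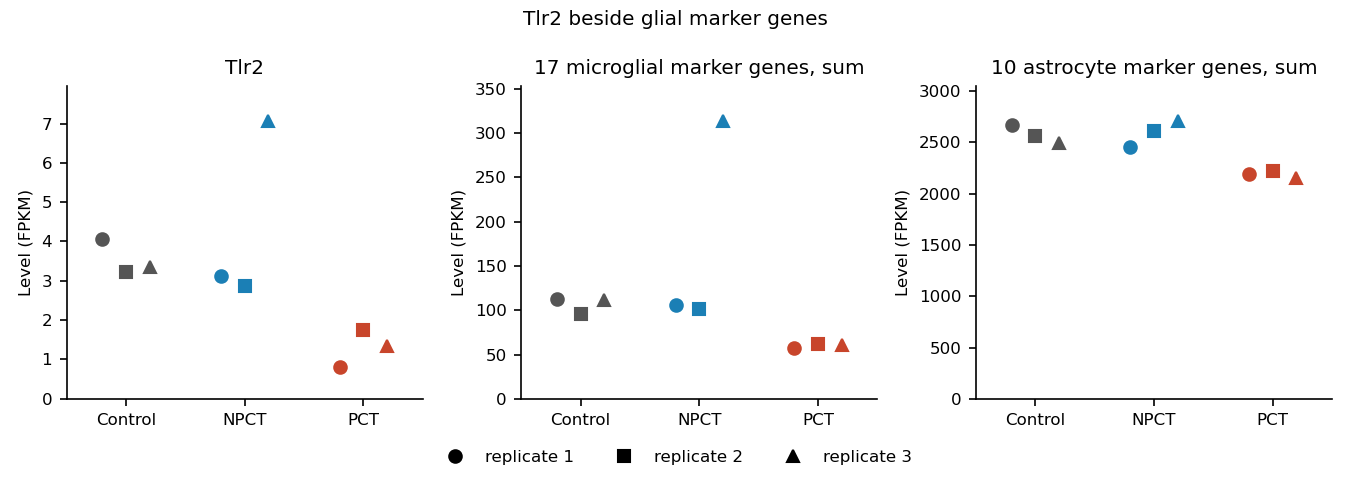
Level in FPKM (vertical axes, from 0) of Tlr2, of the sum of 17 microglial markers and of the sum of 10 astrocyte markers in each of the 9 libraries; point shapes give the replicate number. The PCT libraries were lowest in all 3 panels, and NPCT replicate 3 was highest in all 3, at 7.07 FPKM for Tlr2 and 314 FPKM for the microglial sum.

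Nfkb2 encodes p100, an inhibitor that is processed to the subunit p52, and is a target of NF-kB (ENSRNOG00000019311, chromosome 1 from 266053002 to 266059256, plus strand). It was at 5.44, 4.42 and 4.14 FPKM in Control, at 6.94, 10.1 and 10.3 FPKM in PCT and at 4.77, 5.04 and 7.13 FPKM in NPCT libraries. The PCT and Control libraries did not overlap, and PCT replicate 1 was the lowest of its group, below NPCT replicate 3. The rise with PCT was 0.94 on the log2 scale (95% confidence interval 0.48 to 1.39, adjusted p = 0.0378 in limma), and 2.11% of all genes tested had a log2 fold change at least as high.

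Relb, the gene of the subunit that pairs with p52 in the non-canonical pathway (ENSRNOG00000033235, chromosome 1 from 80517411 to 80544825, minus strand), was at 5.58, 3.75 and 5.67 FPKM in Control, at 5.39, 6.60 and 8.65 FPKM in PCT and at 4.80, 6.11 and 5.98 FPKM in NPCT libraries. The groups overlapped, since PCT replicate 1 lay below 2 of the 3 Control libraries. Its log2 fold change with PCT was 0.45 (95% confidence interval -0.02 to 0.92), with an adjusted p of 0.291 in limma.

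Nfkbia encodes IkB-alpha, which retains NF-kB in the cytoplasm and whose resynthesis ends a pulse of signalling (ENSRNOG00000007390, chromosome 6 from 76267228 to 76270457, minus strand). Its level was 19.2, 17.0 and 21.0 FPKM in Control, 25.5, 38.4 and 31.2 FPKM in PCT and 16.1, 18.9 and 21.5 FPKM in NPCT libraries. Every PCT library was above every other library, on 593 to 857 fragments. The rise was 0.72 on the log2 scale (95% confidence interval 0.36 to 1.08, standard error 0.16), with an adjusted p of 0.0411 in limma. The transcript was also set against that of Rela, the subunit its protein binds, as the ratio of their FPKM values. This ratio was 1.17, 1.22 and 1.30 in Control, 1.44, 1.60 and 1.62 in PCT and 0.944, 1.09 and 1.14 in NPCT libraries. In this ratio neither peptide group overlapped Control, and the exact two-sided permutation p was 0.1 for each peptide, the smallest possible. Rela itself was at 16.4, 14.0 and 16.2 FPKM in Control, 17.7, 24.0 and 19.2 FPKM in PCT and 17.0, 17.4 and 18.9 FPKM in NPCT libraries. With NPCT the log2 fold change was -0.02 for Nfkbia, whose libraries overlapped Control, and 0.20 for Rela.

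Nfkbiz encodes IkB-zeta, a nuclear IkB protein that is induced by Toll-like receptor and interleukin-1 signals and controls a set of secondary target genes (ENSRNOG00000031163, chromosome 11 from 47243342 to 47271487, plus strand). It was at 2.86, 2.85 and 2.93 FPKM in Control, at 3.71, 4.95 and 4.26 FPKM in PCT and at 2.65, 2.75 and 2.99 FPKM in NPCT libraries. The 3 PCT libraries lay above the other 6, yet the log2 fold change of 0.55 (95% confidence interval 0.26 to 0.85) is a fold of 1.47 and the adjusted p from limma was 0.0513, so it missed both thresholds.

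Tnfaip3 encodes A20, an enzyme that edits ubiquitin chains and shuts down signalling upstream of IKK (ENSRNOG00000049517, chromosome 1 from 14402913 to 14412807, minus strand). It was at 3.01, 3.65 and 3.70 FPKM in Control, at 4.22, 3.80 and 4.20 FPKM in PCT and at 3.07, 3.31 and 3.71 FPKM in NPCT libraries. The PCT libraries were above the Control libraries by a narrow margin. The log2 fold change was 0.23 (95% confidence interval -0.05 to 0.52, adjusted p = 0.369 in limma).

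Icam1 encodes an adhesion molecule that binds leukocyte integrins (ENSRNOG00000020679, chromosome 8 from 22035256 to 22047059, plus strand). It was at 12.8, 12.3 and 11.7 FPKM in Control, at 16.6, 23.0 and 20.2 FPKM in PCT and at 10.3, 10.1 and 14.6 FPKM in NPCT libraries. All PCT libraries exceeded the other 6, and the rise was 0.69 on the log2 scale (95% confidence interval 0.33 to 1.04, standard error 0.16), with an adjusted p of 0.0461 in limma. Endothelial cells are a known source of Icam1 and Vcam1, and the sum of endothelial markers was 1.77 to 2.49 FPKM in Control and 1.76 to 2.31 FPKM in PCT libraries. The sum of 9 fibroblast and pericyte markers was 15.7, 17.3 and 19.0 FPKM in Control and 16.7, 25.8 and 22.1 FPKM in PCT libraries, with 1 of the 6 tested, Col3a1, called higher. Of these 6, 1 gene, Pdgfrb, was lower in all PCT than in all Control libraries, against 11.9% of all genes, and was not called. It was at 2.57 to 2.67 FPKM with PCT and 2.90 to 3.54 FPKM in Control. Within the PCT group the sum of the 9 markers had the same order of libraries as Icam1 and Nfkbia, and its part in their rise was not tested.

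Vcam1, the gene of an adhesion molecule for the leukocyte integrin VLA-4 (ENSRNOG00000014333, chromosome 2 from 219071193 to 219097619, minus strand), was at 21.4, 20.9 and 18.8 FPKM in Control, at 19.2, 32.4 and 21.1 FPKM in PCT and at 15.4, 16.6 and 15.2 FPKM in NPCT libraries. A single library, PCT replicate 2, stood above Control. The log2 fold change with PCT was 0.21 (95% confidence interval -0.17 to 0.60, adjusted p = 0.558 in limma).

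Ptgs2 encodes the inducible cyclooxygenase, which neurons also express with synaptic activity (ENSRNOG00000002525, chromosome 13 from 67351087 to 67359335, plus strand). It had the lowest level of the 10 genes, at 1.03, 0.890 and 1.31 FPKM in Control, 1.05, 1.14 and 0.678 FPKM in PCT and 0.834, 0.781 and 0.740 FPKM in NPCT libraries, on 49 to 83 fragments. The PCT and Control libraries overlapped. Its log2 fold change with PCT was -0.17 (95% confidence interval -0.81 to 0.47, adjusted p = 0.811 in limma), and it turned to 0.04 without PCT replicate 3.

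Sod2 encodes the mitochondrial superoxide dismutase, an antioxidant enzyme (ENSRNOG00000019048, chromosome 1 from 47914759 to 47921587, minus strand). It had the highest level of the 10 genes, at 51.8, 45.8 and 47.2 FPKM in Control, 52.1, 76.7 and 75.5 FPKM in PCT and 48.5, 48.2 and 63.3 FPKM in NPCT libraries. PCT replicate 1 was barely above the highest Control library, and the other PCT libraries were far above it. The log2 fold change was 0.48 (95% confidence interval 0.11 to 0.84) with an adjusted p of 0.143 in limma, and without PCT replicate 1 it was 0.66 and passed at an adjusted p of 0.0300.

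With NPCT none of the 10 genes was called by limma, and 0 had an unadjusted p under 0.05, where 29.3% of all genes had. The share of all genes called was 0.219%, with 0.15% higher and 0.0689% lower, and limma-voom on the recovered fragments called 0 of the 10 as well. Vcam1 and Ptgs2 lay lower in all 3 NPCT libraries than in all 3 Control libraries, as did 20.3% of all genes, while 0 of the 10 lay higher in all 3, as did 20% of all genes. Vcam1 and Ptgs2 had log2 fold changes of -0.37 (95% confidence interval -0.75 to 0.01) and -0.40 (-1.04 to 0.25). The other 8 genes overlapped Control. For Nfkbia the interval of the NPCT change was -0.38 to 0.34, for Nfkbiz -0.34 to 0.25 and for Icam1 -0.45 to 0.26 on the log2 scale, and changes within these bounds cannot be told from 0 in these data. Tlr2 had a log2 fold change of 0.17 (-0.65 to 0.99), and -0.23 without NPCT replicate 3. NPCT replicate 3 was the highest NPCT library in 7 of the 10 genes, and PCT replicate 2 the highest PCT library in 7 of 10.

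PCT and NPCT, the parent peptide and its amino-terminal part, were compared directly at the same dose and time, the single pair of peptides in the study. Icam1, Nfkbia, Nfkb2, Nfkbiz and Vcam1 were higher with PCT than with NPCT by 1.71-fold, 1.67-fold, 1.60-fold, 1.51-fold and 1.50-fold, and Tlr2 was lower. These 6 called genes of 10 stand beside 5.76% of all genes, with 1.38% called higher and 4.38% called lower. The log2 difference was 0.78 for Icam1 (95% confidence interval 0.42 to 1.13, adjusted p = 0.0154), 0.74 for Nfkbia (0.38 to 1.10, adjusted p = 0.0182) and 0.60 for Nfkbiz (0.30 to 0.89, adjusted p = 0.0194) in limma. Those of Nfkb2, at 0.68 (0.23 to 1.13), and of Vcam1, at 0.59 (0.20 to 0.97), passed narrowly, with adjusted p-values of 0.0496 and 0.0462 in limma. Tlr2 differed by -1.61 (-2.43 to -0.80, adjusted p = 0.0208 in limma). The comparison shares its PCT libraries with PCT against Control, so its calls are not separate evidence of the rise with PCT. For Vcam1, which was called here and in neither comparison with Control, the PCT libraries had a mean of 24.3 ± 7.14, the Control libraries of 20.4 ± 1.39 and the NPCT libraries of 15.7 ± 0.766 FPKM (SD, n = 3 libraries each).

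The remaining 4 genes did not pass between the peptides. The log2 difference of PCT over NPCT was 0.34 for Sod2 (95% confidence interval -0.02 to 0.70), 0.27 for Tnfaip3 (-0.02 to 0.56), 0.27 for Relb (-0.21 to 0.74) and 0.23 for Ptgs2 (-0.41 to 0.87). The intervals of Relb, Ptgs2 and Sod2 reach past the difference of 0.60 that was called for Nfkbiz, and that of Tnfaip3 ends just short of it. The PCT libraries lay above the NPCT libraries in 5 genes (Nfkbia, Nfkbiz, Tnfaip3, Icam1 and Vcam1), against 18% of all genes, and below them in Tlr2, against 15.4%. The count of 6 called genes was 5 without NPCT replicate 3 and PCT replicate 3 together and 1 without PCT replicate 2 or without NPCT replicate 1. It was 3 without NPCT replicate 2, and 0 in a fit of these 6 libraries alone.

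**Figure D4:**
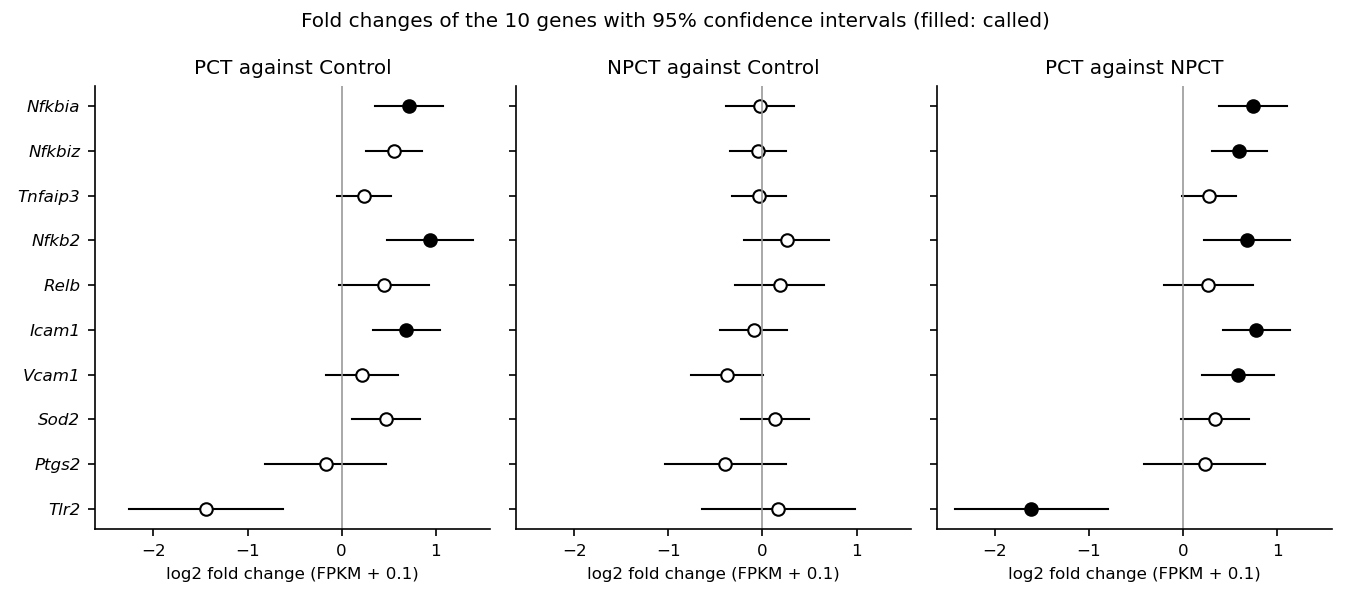
Log2 fold change of each of the 10 genes (horizontal axes, on FPKM plus 0.1) with its 95% confidence interval from limma in PCT against Control, NPCT against Control and PCT against NPCT; filled points were called. Filled points number 3, 0 and 6 in the 3 panels, and Tlr2 is the gene with the lowest fold change in PCT against Control, at -1.44, and against NPCT, at -1.61.

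The wider pathway was read from 124 other genes in 8 lists, of which 120 were in the table and 89 passed the filter. With PCT 7 were called higher and 6 lower, the median log2 fold change was -0.0013, and with NPCT 0 were called by limma or by limma-voom, with 10 higher and 6 lower at an unadjusted p under 0.05, beside 29.3% of all genes. With PCT 22 of the 89 were higher and 19 lower at that p, beside 18.9% of all genes. The count of 13 with PCT was 6 without Control replicate 1, 7 without Control replicate 2 and 8 without PCT replicate 2. Called with PCT were 0 of 3 other subunits, 0 of 5 IkB family genes, 0 of 12 IKK and related kinase genes and 0 of 18 adaptors and ubiquitin ligases, and at 2.31% called over all genes, lists of this size do not differ from the background by holding 0. At an unadjusted p under 0.05 these lists had 2, 2, 1 and 0 genes higher and 0, 1, 0 and 5 lower, beside 18.9% of all genes in either direction. Rela, the most abundant of the other subunits at a mean of 17.9 FPKM over the 9 libraries, had a log2 fold change of 0.38 (adjusted p = 0.110 in limma). Nfkb1, which encodes p105 and p50 and is itself a target, had one of 0.43 (adjusted p = 0.211 in limma). Nfkbib at 13.0, Tab2 at 28.0 and Irak1 at 39.7 FPKM were the highest of the IkB family, kinase and adaptor lists, and their log2 fold changes with PCT were 0.29, -0.23 and -0.07.

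Among the cytokine and chemokine targets, 2 of 11 tested genes were called higher with PCT and 1 lower, beside 0.589% and 1.72% of all genes. In all 3 PCT libraries 4 of the 11 lay above all Control libraries and 4 below, against 13.1% and 11.9% of all genes. Of these, Csf1 and Ccl2 were not called, with log2 fold changes of 0.39 and 0.96. Nor were Ccl7, Ccl20 and Cx3cl1, with -1.07, -0.86 and -0.13. Cxcl1, a neutrophil chemokine, measured 5.11 ± 0.578 FPKM in Control and 25.7 ± 8.96 FPKM with PCT (mean ± SD of 3 libraries, as in what follows), which is a rise of 2.25 on the log2 scale (adjusted p = 0.0016 in limma). Cxcl10, a chemokine of T cells and a target of interferons as well, measured 4.22 ± 1.36 and 14.7 ± 5.10 FPKM, a rise of 1.78 (adjusted p = 0.0148 in limma). Cxcl9, an interferon-gamma-induced chemokine, fell by 2.65 on the log2 scale, on 6 to 8 fragments in the PCT libraries. Of this list 13 genes were under the filter, and Tnf was at 0 in all Control and PCT libraries and at 1 fragment in NPCT replicate 3. Il6 rested on 0 to 2 fragments in Control, 3 to 9 in PCT and 0 in NPCT libraries, while Il1b was at 0.701 to 1.20 FPKM in Control and 0.821 to 1.36 FPKM in PCT libraries. Cx3cl1, the highest of the list at 36.6 FPKM, had a log2 fold change of -0.13.

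Of the other target genes, 2 of 17 were called higher and 2 lower, beside 0.589% and 1.72% of all genes. In all PCT libraries 5 of the 17 lay above all Control libraries and 4 below, against 13.1% and 11.9% of all genes. Irf1, a transcription factor gene induced by NF-kB and by interferons, rose by 1.10 on the log2 scale, with means of 4.49 ± 0.696 FPKM in Control and 9.68 ± 0.837 FPKM with PCT. Ccnd1, the gene of cyclin D1, rose by 0.69, with means of 20.7 ± 0.529 and 33.5 ± 3.26 FPKM. Lcn2, the gene of lipocalin-2, which reactive astrocytes make in quantity, fell by 4.74 (1184 ± 149 against 47.8 ± 24.4 FPKM), and C3, the gene of complement component 3, fell by 4.09 (89.9 ± 12.3 against 5.29 ± 1.44 FPKM). Lcn2 was the most abundant gene of all 8 lists, with a mean of 710 FPKM over the 9 libraries. The astrocyte and microglial sums were lower in these PCT libraries too. Of the 10 astrocyte markers, 8 were lower in all PCT than in all Control libraries, against 11.9% of all genes, and 1 was higher, against 13.1%. The higher one was Gfap, at 899 to 931 FPKM with PCT and 734 to 828 FPKM in Control, and it was not called. The median log2 fold change of the 10 was -0.46, and their part in the falls of Lcn2 and C3 was not tested.

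Among the receptors, 2 of 12 tested were called higher and 3 lower, beside 0.589% and 1.72% of all genes. In all PCT libraries 3 of the 12 lay above all Control libraries and 6 below, against 13.1% and 11.9% of all genes. Il1rap, the accessory subunit of the interleukin-1 receptor, and Tnfrsf12a, the receptor of the cytokine TWEAK, rose by 1.02 and 1.51 on the log2 scale, with Control means of 3.54 ± 0.356 and 6.60 ± 0.0951 FPKM and PCT means of 7.26 ± 0.636 and 20.1 ± 8.61 FPKM. Tlr1, which pairs with Tlr2, fell by 1.75, Tlr7, a receptor of single-stranded RNA, by 1.98 and Tnfrsf1b, TNF receptor 2, by 1.61. These 3 had 9 to 12, 9 to 18 and 15 to 30 fragments in the PCT libraries. The 17 microglial markers had a median log2 fold change of -1.50 in the same comparison, and their part in these falls was not tested. Tnfrsf1a, TNF receptor 1, had the highest level of the list at 49.8 FPKM and a log2 fold change of 0.11. Of the deubiquitinases and other inhibitors 1 of 11 was called, beside 2.31% of all genes. It was Otulin, an enzyme that cleaves linear ubiquitin, at a log2 fold change of 0.72. Tax1bp1, the most abundant at 59.6 FPKM, had a log2 fold change of -0.03. Consensus matches stood in the promoter windows of 4 of the 6 called-higher genes with a window, of 1 of the 6 called-lower genes and of 23 of the 90 listed genes with a window.

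**Figure D5:**
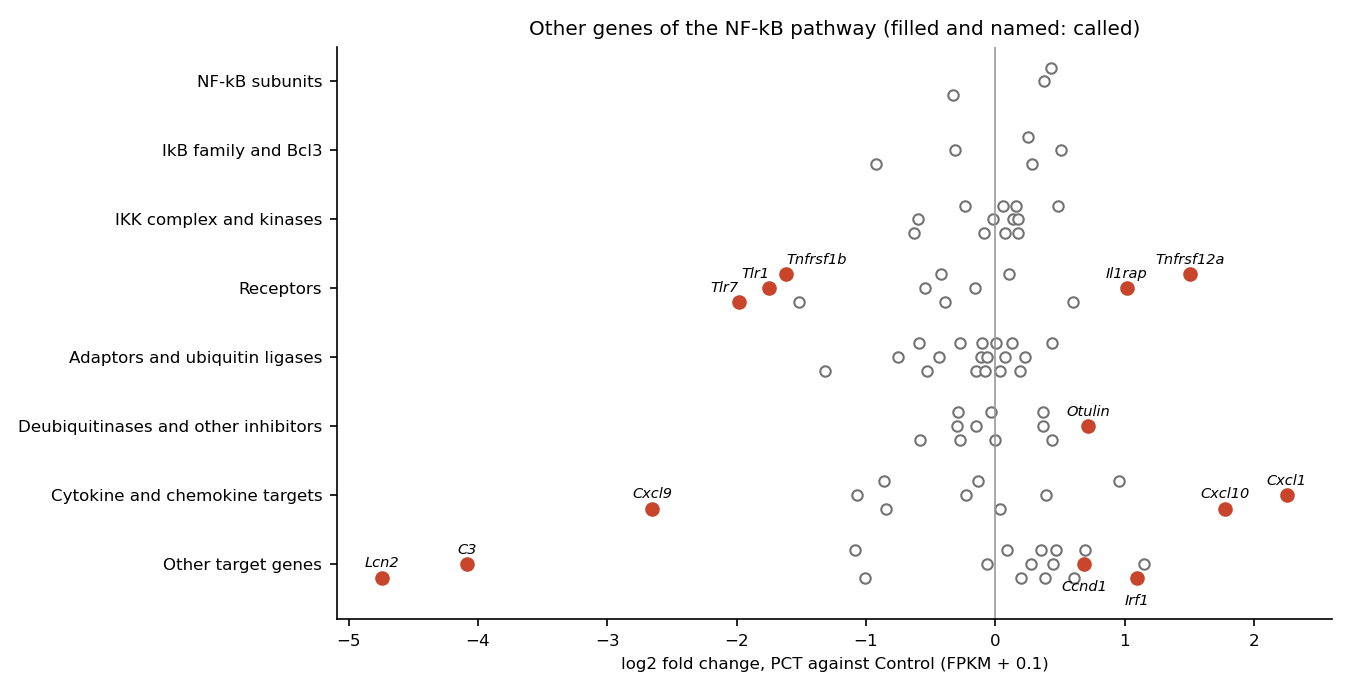
Log2 fold change of PCT over Control (horizontal axis, on FPKM plus 0.1) of the 89 tested genes of 8 pathway lists (vertical axis, points offset within a list to separate them); filled and named points were called. The 13 called genes are 7 higher and 6 lower, in the receptor, inhibitor, cytokine and other target lists, from -4.74 for Lcn2 to 2.25 for Cxcl1.

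In level per length, Sod2 was the highest and Ptgs2 the lowest of the 10 genes by mean FPKM in each group. In Control the order was Sod2, Vcam1, Nfkbia, Icam1, Relb, Nfkb2, Tlr2, Tnfaip3, Nfkbiz and Ptgs2, and neighbours whose libraries overlapped were Vcam1 with Nfkbia, Relb with Nfkb2 and Tlr2 with Tnfaip3. With PCT, Tlr2 stood in place 9 and Nfkbiz in place 7, and Tlr2 overlapped Ptgs2.

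Likeness over the 9 libraries was described by the Pearson correlation of log2 levels with 14976 named genes. The 9 points share groups and libraries, so the correlations follow the group differences. Nfkbia was most like Nfkbiz (0.978), Ogfod3 (0.970) and Dph5 (0.963). For Nfkb2 the leading genes were Col18a1, Pcyt1a and Pdpn (0.982, 0.982 and 0.981), and for Icam1 they were Nsa2, Snx18 and Hbegf (0.982, 0.978 and 0.978). Within the 10 genes, Nfkb2 and Sod2 had a correlation of 0.959, Icam1 and Nfkbiz 0.964, and Nfkbia and Tlr2 -0.575.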

How the data were processed

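RNA was measured in 9 libraries, 3 per group, grouped by the sample titles. The authors aligned clean reads with HISAT2 2.0.5, counted them with featureCounts 1.5.0-p3 and deposited FPKM values. The processing notes of the authors also name StringTie 1.3.3b, DESeq2 1.20.0 and Rnor_6.0. FPKM times gene length was a whole multiple, within 0.01, of a single step per library in at least 99.985% of values, which gave back the fragments.

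Values of log2(FPKM + 0.1) entered a single limma fit (version 3.58.1, R 4.3.3) that gave each group 1 mean and used an intensity-dependent prior variance. P-values were adjusted by Benjamini-Hochberg over the 15958 genes averaging 0.5 FPKM or more. The authors tested counts with DESeq2 at the same thresholds (adjusted p of 0.05, fold change of 1.5). The deposited unit is FPKM, so limma took its place. The fit was tested on simulated data, drawn with the same spread setting for all genes and with no library standing apart. That test does not cover how libraries that stand apart affect the calls.

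The 10 genes, the lists and the motif were chosen with earlier results of these data known. Named were all 10 genes and, per list, the genes called against Control, at most 5 with the smallest adjusted p, and the gene with the highest mean FPKM. For each called gene of the 10, the 3 most correlated genes were named. Other genes were named after their values were seen (among them Tnf, Il6, Il1b, Nfkb1, Csf1, Ccl2, Ccl7, Ccl20 and Olig1). The listed symbols Ly96, Ticam1, Nos2 and Saa3 were not matched. The replicate numbers were not taken to pair the libraries, since same-numbered libraries did not deviate together over the genes tested (correlations from -0.07 to 0.03). The labels do not say whether same-numbered libraries share a culture. Alternatives changed the pseudocount, filter, scaling, libraries, block, length trend and test.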

Additional observations from a re-analysis of the deposited data

How the results depend on the processing

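None of the 627 recomputed fold changes of the 10 genes reversed a called direction, 546 kept their side of the threshold, 76 fell short of it and 5 newly passed it, and 14 that were not called had the other sign. In PCT against Control, 3 of the 10 genes were called. The count was 0 with no filter on low values (more genes tested), 1 in a fit without the other group, 1 with the replicate block and 1 with the replicate block and the gene length trend removed, and 0 to 5 when 1 library was left out. With quantile normalization it was 2, Nfkb2 and Nfkbiz (adjusted p = 0.0398 and 0.0434 in limma), and Nfkbia (0.0536) and Icam1 (0.0578) did not pass. In PCT against NPCT, 6 were called, with 0 in a fit without the other group, 3 with the gene length trend removed, with or without the replicate block, and 1 to 5 when 1 library was left out. For the pathway lists, 13 were called in PCT against Control, with 6 to 14 when 1 library was left out. In PCT against NPCT 14 were called, with 8 in a fit without the other group and 9 to 13 when 1 library was left out. In NPCT against Control 0 were called, with 1 in a fit without the other group, 1 with the replicate block, 1 without both libraries that stood apart and 0 to 1 when 1 library was left out. Apart from the filter, the cause was not tested. The replicate block kept Nfkbia in PCT against Control (adjusted p = 0.0464 in limma) and not Nfkb2 (0.0603) or Icam1 (0.0661). Over all genes, NPCT against Control gave 35 calls as reported and 579 in the fit without PCT, 354 by limma-voom and 319 with the replicate block. Where a group kept 2 libraries its spread was taken as that of the other groups. Tlr2, Ptgs2 and Tnfaip3 rest on the fewest fragments of the 10, and counting error limits their fold changes most.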
